A study of Homo sapiens with 5 samples.

Results

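The kallikrein locus on human chromosome 19 holds KLK3, which encodes prostate-specific antigen, and its neighbours KLK1, KLK15, KLK2, KLK4, KLK5, KLK6, KLK7, KLK8 and KLK9. Its histone marks were mapped in VCaP cells, an androgen-responsive human prostate cancer line derived from a metastasis, by chromatin immunoprecipitation with sequencing (ChIP-seq). Of the immunoprecipitated libraries 2 were for H3K27ac, histone H3 acetylated on lysine 27, and 2 for H3K4me1, histone H3 with a single methyl group on lysine 4. Each mark was pulled down with its own antibody, from cells in DMEM with 10% serum. The labels name no treatment, genotype change or separate culture for any library, so the spread between replicates may be technical, and the p-values measure only that spread. The 1 input library is not analysed here. Peaks were chosen by position alone, as the intervals of each list that overlap 51300000 to 51515000 of chromosome 19 (hg19, counted from 1), a stretch of 215 kb. They numbered 85 of the 363159 peaks of all 4 lists on the autosomes and chromosome X. H3K27ac replicates 1 and 2 held 13 and 17 of them, and H3K4me1 replicates 1 and 2 held 26 and 29. The lists give the position and name of each peak and neither its height nor its significance, and the read depth is unknown. The text therefore speaks of length covered by peaks, not of signal strength.

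Kallikreins are secreted serine proteases whose genes lie side by side in 1 cluster. In the prostate, androgen bound to the androgen receptor drives KLK3 and KLK2 through response elements in their promoters and in enhancers upstream, and the KLK3 protease cleaves the gel-forming proteins of semen. H3K27ac marks active promoters and active enhancers, whereas H3K4me1 lies at enhancers whether or not they are active and beside active promoters. The gene positions used were known to 1 kb in hg19. KLK1 lies at 51.322 to 51.327 Mb, KLK15 near 51.33 Mb, KLK3 at 51.358 to 51.364 Mb, KLK2 at 51.377 to 51.384 Mb, KLK4 at 51.41 to 51.414 Mb, and KLK5 to KLK9 together at 51.446 to 51.513 Mb. KLK3 and KLK2 are read towards higher coordinates, and the other genes of the cluster towards lower ones.

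The promoters of KLK3 and KLK2 are shown because wide H3K27ac regions cross these 2 gene starts, and those of KLK4 and KLK5 for comparison. No H3K27ac peak covered the starts of KLK4 and KLK1. RefSeq promoters were at hand for 8 of the 10 genes, in build GRCh38.p14. Because the peaks are in hg19, promoters and peaks are linked by gene name and not by coordinate. The 250 bases before the start, on the strand of the gene, come from chr19:50854665-50854914 (+) for KLK3, chr19:50873189-50873438 (+) for KLK2, chr19:50911396-50911645 (-) for KLK4 and chr19:50953039-50953288 (-) for KLK5. For genes with several starts the outermost was taken. Capitals mark motif matches and, in KLK3 and KLK2, the 15 bases of the proximal androgen response element.
KLK3: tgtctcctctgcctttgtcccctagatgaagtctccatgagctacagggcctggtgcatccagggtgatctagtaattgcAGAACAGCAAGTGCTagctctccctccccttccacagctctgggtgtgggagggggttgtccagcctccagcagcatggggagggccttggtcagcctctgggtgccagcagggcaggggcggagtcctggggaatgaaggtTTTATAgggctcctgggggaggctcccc
KLK2: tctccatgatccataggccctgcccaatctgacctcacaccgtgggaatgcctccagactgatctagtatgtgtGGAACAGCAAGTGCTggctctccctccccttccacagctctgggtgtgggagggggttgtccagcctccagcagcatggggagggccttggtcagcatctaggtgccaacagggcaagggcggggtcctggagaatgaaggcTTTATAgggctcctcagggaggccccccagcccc
KLK4: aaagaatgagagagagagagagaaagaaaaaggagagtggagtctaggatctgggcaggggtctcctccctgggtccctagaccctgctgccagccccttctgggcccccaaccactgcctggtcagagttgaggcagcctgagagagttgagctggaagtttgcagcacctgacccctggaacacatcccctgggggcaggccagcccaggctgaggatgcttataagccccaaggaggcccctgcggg
KLK5: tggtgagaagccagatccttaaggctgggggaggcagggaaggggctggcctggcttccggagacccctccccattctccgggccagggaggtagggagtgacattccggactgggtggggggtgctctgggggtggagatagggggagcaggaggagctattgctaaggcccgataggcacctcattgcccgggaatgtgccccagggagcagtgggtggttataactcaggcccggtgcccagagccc

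In a global alignment 205 of 259 columns (79.2%) were identical between the KLK3 and KLK2 promoters, whereas KLK3 shared 46.8 to 49.6% with the promoters of KLK15, KLK4, KLK5, KLK6, KLK7 and KLK9. The element reads AGAACAGCAAGTGCT in KLK3, beginning 170 bases before the start, and GGAACAGCAAGTGCT in KLK2, beginning 176 bases before it. They differ by A1G, counted from 1 at the 5′ end of the element with the base of KLK3 first. This stretch was picked after its letters were read. The best match elsewhere among the members had 4 mismatches (KLK7). Motifs were searched on both strands of the 250 bases. The androgen receptor hexamer TGTTCT occurred in KLK3, on the opposite strand at the beginning of the element, and in no other of the 8 members, against 12.4% of 35116 promoters in the table. Its inverted pair, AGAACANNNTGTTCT, was found in none of the members and in 0.00285% of all promoters. The element had 2 mismatches to that pair in KLK3 and 3 in KLK2. TATAAA, the TATA box, was present in KLK3 and KLK2 on the opposite strand (28 and 34 bases before the start) and in KLK15, against 10.7% of promoters. The forkhead motif TGTTTAC was in none of the members and in 2.98% of promoters. A match is a description of these letters, and its absence says only that the letters are not in this window.

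H3K27ac formed a few wide regions, at the lower edge of the locus, in front of KLK3 and in front of and over KLK2, and H3K4me1 formed shorter regions. Of the 215 kb, H3K27ac peaks covered 54.6 kb in replicate 1 and 54.7 kb in replicate 2, and H3K4me1 peaks 18.7 and 25.8 kb. H3K27ac thus covered 25.4% of the locus in each of its libraries, and H3K4me1 8.69 and 12.0%, and the libraries of the marks did not overlap in this measure. In peak number the order was the opposite, with 15 ± 2.83 H3K27ac peaks (mean ± SD, n = 2) against 27.5 ± 2.12 H3K4me1 peaks (n = 2). The ratio of H3K27ac to H3K4me1 was 2.49 for covered length (2.11 to 2.93 over library pairs) and 0.541 for peak number (0.448 to 0.654). Both differences were larger than the spread between libraries of a mark. By exact permutation (two-sided) p was 0.333 for each, and 0.333 after Benjamini-Hochberg adjustment over 3 tests, which is the smallest value that 2 against 2 libraries allow. H3K27ac peaks had median widths of 1591 and 1296 bp at the locus, against 539.5 and 731 bp in the H3K4me1 libraries. The widest peak measured 14370 bp in H3K27ac replicate 1 and 13064 bp in replicate 2, against 2050 and 2341 bp in the H3K4me1 libraries. Each H3K27ac library had 4 peaks of 5 kb or more here, and the H3K4me1 libraries had 0. Among all peaks, those of 5 kb or more made up 1.88 and 1.02% in the H3K27ac libraries and 0.0575 and 0.336% in the H3K4me1 libraries.

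**Figure D1:**
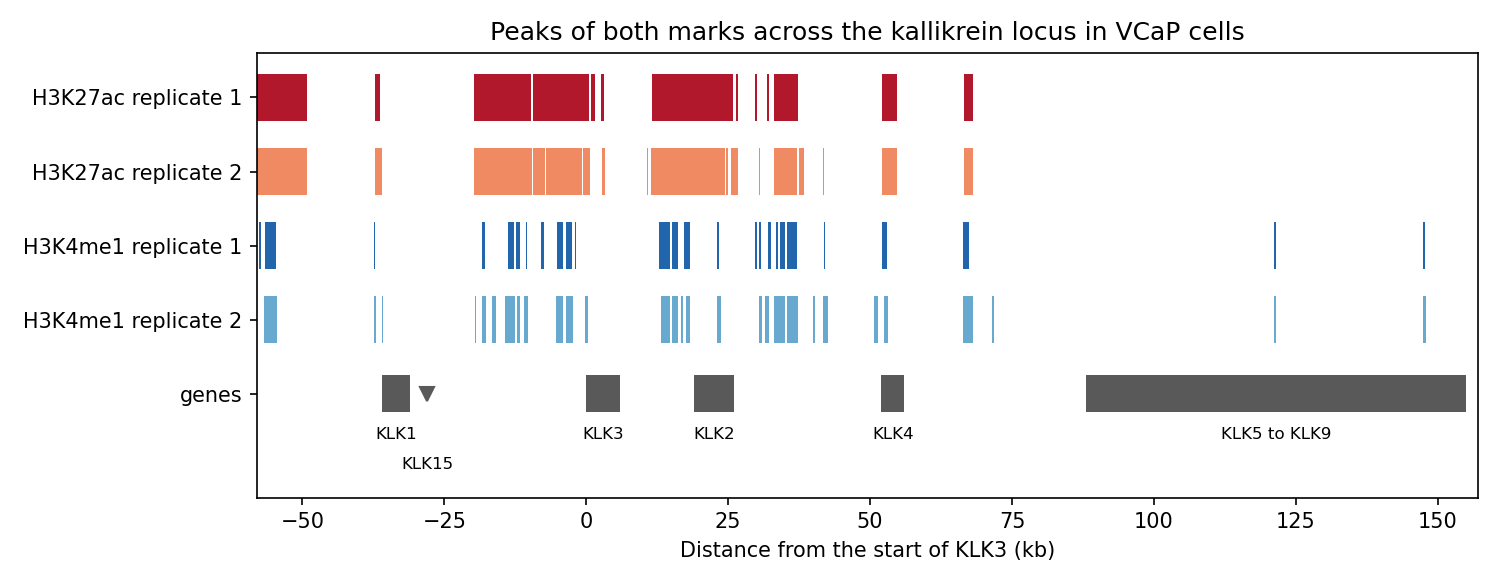
Peaks of each library across the locus, drawn as boxes over the distance from the start of KLK3 (kb, horizontal axis). The rows are H3K27ac replicates 1 and 2, H3K4me1 replicates 1 and 2, and the genes, with KLK15 as a triangle because only its approximate position was used. H3K27ac fills most of the stretch from 19.8 kb before to 37.4 kb after the start of KLK3 in both libraries, with H3K4me1 in short pieces inside it, and no H3K27ac peak lies over KLK5 to KLK9.

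Relative to the genome both marks were dense at the locus, H3K27ac far more so. The covered share was 10.5 and 11.4 times that of the autosomes and chromosome X for H3K27ac (2.41 and 2.23% of the genome) and 3.64 and 3.25 times for H3K4me1 (2.39 and 3.69%). The ratio of these enrichments between H3K27ac and H3K4me1 was 3.18 (2.89 to 3.51 over library pairs, exact two-sided permutation p = 0.333, adjusted p = 0.333, again the smallest possible). Chromosome 19 is itself rich in both marks, with 5.28 and 5.14% of its length covered by H3K27ac and 3.22 and 4.49% by H3K4me1. Against that chromosome alone the locus stood at 4.80 and 4.95 times for H3K27ac and 2.70 and 2.67 times for H3K4me1, which lowers the ratio between marks to 1.82. Set among 14105 windows of the same length on a fixed grid, the locus had rank 10 and 7 in H3K27ac replicates 1 and 2. In H3K4me1 replicates 1 and 2 it had rank 562 and 603. The locus therefore stood near the top of the genome for H3K27ac and lower in the order for H3K4me1. The median window had 1.14 and 1.05% of its length covered by H3K27ac and 1.48 and 2.61% by H3K4me1.

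**Figure D2:**
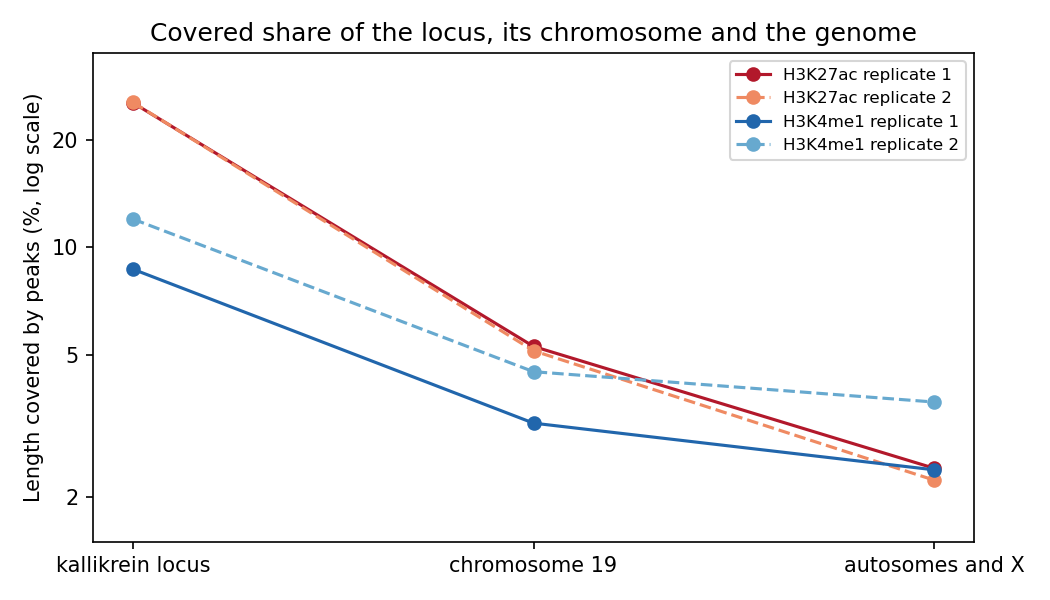
Percentage of length covered by peaks (vertical axis, log scale) in the kallikrein locus, on chromosome 19 and on the autosomes with chromosome X, with 1 line per library. Both H3K27ac lines stand at 25.4% at the locus, against 2.41 and 2.23% over the genome, and the H3K4me1 lines at 8.69 and 12.0%, against 2.39 and 3.69%.

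In tiles of 5 kb the locus held H3K27ac of both libraries in 19 of 43 tiles, against 8.55% of tiles over the genome. H3K4me1 of both libraries was present in 19 of 43 tiles as well, against 13.3% of all tiles. Both marks, each in both libraries, fell in 16 tiles (background 6.56%), and H3K27ac of both libraries with no H3K4me1 peak in 3 tiles (background 1.07%). No peak of any library fell in 20 of the 43 tiles, against 79.8% of tiles of the genome.

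By bases, though not by peak count, the H3K27ac libraries resembled each other more closely at the locus than over the genome. Bases covered in both made up 89.5% of those covered in either (51.6 of 57.7 kb), against 76.9% over the genome. For H3K4me1 the value was 56.8% (16.1 of 28.4 kb), against 51.8%. By count, 10 of 13 and 13 of 17 H3K27ac peaks recurred in the other library, against 87.9 and 86.0% over the genome. For H3K4me1 22 of 26 and 21 of 29 recurred, against 88.3 and 68.7%. Peaks without a partner in the other library numbered 3 of 13 and 4 of 17 for H3K27ac and 4 of 26 and 8 of 29 for H3K4me1. All of these were at most 833 bp wide, so the wide blocks recurred in both libraries. Merging overlapping peaks of both libraries of a mark, and keeping merged regions with at least 1 peak of each, left 9 H3K27ac and 21 H3K4me1 regions, called replicated regions from here on.

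Among the genes, KLK3 had its H3K27ac in front of the gene and little on the gene itself. The 5 kb upstream of its start were covered over 100 and 96.0% by H3K27ac in replicates 1 and 2 and over 45.4 and 48.1% by H3K4me1. Over the gene span H3K27ac covered 25.8 and 19.6% and H3K4me1 0 and 5.80%. The upstream block consisted of 2 replicated H3K27ac regions of 10203 and 10110 bp, from 51338170 to 51348372 and from 51348533 to 51358642, which are separated by only 160 bp. Both rank among the 100 widest of the genome's replicated H3K27ac regions (rank 94 and 97). The second crosses the start of KLK3 and ends 0.642 kb after it, at the 1 kb precision of the start. In H3K27ac replicate 1 the start was covered by a peak of 9903 bp and in replicate 2 by one of 1269 bp, since replicate 2 has this region as 3 peaks.

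Between KLK15 and KLK3 the gene table places LOC105372441, a long non-coding RNA gene with the synonym KLK3e, within the interval whose H3K27ac coverage was 69.5 and 68.5% (H3K4me1 19.3 and 26.7%). H3K4me1 just in front of KLK3 formed 2 replicated regions, from 51352673 to 51353962 and from 51354351 to 51355609. They lie 5.33 to 4.04 kb and 3.65 to 2.39 kb before the start. KLK3 has a known androgen-responsive enhancer upstream, and its place among these regions was not analysed here. Over the kb from 5 to 4 kb before the start H3K4me1 covered 95.4 and 96.2% in its libraries. At the start itself only H3K4me1 replicate 2 had a peak, of 534 bp, and the nearest peak of replicate 1 was 1.85 kb away. Besides the end of that block, the sole replicated H3K27ac region inside the gene was 590 bp wide, from 51360650 to 51361239, and it was also the sole one of the 9 with no H3K4me1 peak of either library. Beyond it came a gap of 8211 bp to the next replicated H3K27ac region, in which H3K4me1 had no peak and H3K27ac 1 peak, in replicate 2.

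KLK2, which encodes kallikrein 2, a protease that can activate the KLK3 proenzyme, was covered by H3K27ac over nearly its whole span as well as in front. The 5 kb upstream of its start were covered over 100% by H3K27ac in both libraries and over 54.3 and 57.9% by H3K4me1. Over the gene span H3K27ac covered 99.1 and 91.3% and H3K4me1 3.54 and 10.6%. H3K27ac on KLK2 and KLK3 thus differed along the gene by more than the spread between libraries (SD 5.45 percentage points for KLK2 and 4.38 for KLK3, n = 2 each). In the 5 kb upstream the genes were close, but over 10 kb they were not. There H3K27ac covered 74.4 and 77.2% for KLK2, against 97.6 and 93.4% for KLK3, and H3K4me1 38.5 and 38.0% for KLK2, against 29.0 and 27.4% for KLK3. The region behind this was the widest of the locus, 15261 bp from 51369451 to 51384711, rank 20 in the genome, and it reaches from 7.55 kb before to 7.71 kb after the start of KLK2. It was 1 peak of 14370 bp and a small one of 227 bp in replicate 1, and 3 peaks in replicate 2.

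Upstream of KLK2, H3K4me1 formed 3 replicated regions, at 51370868 to 51372751, 51373056 to 51374099 and 51375268 to 51376332. They end 4.25, 2.90 and 0.668 kb before the start. The start of KLK2 carried no H3K4me1 peak in either library, with the nearest 0.779 and 0.668 kb away. From the start to 3 kb into the gene, H3K27ac covered 100% of every kb in both libraries and H3K4me1 0%. Within the gene H3K4me1 had 1 replicated region, 740 bp from 51380993 to 51381732. At both genes, then, H3K4me1 lay before the start and largely spared the start and the first kb of the gene, where H3K27ac was present. The exception was H3K4me1 replicate 2 at KLK3, with 34.8% of the first kb.

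**Figure D3:**
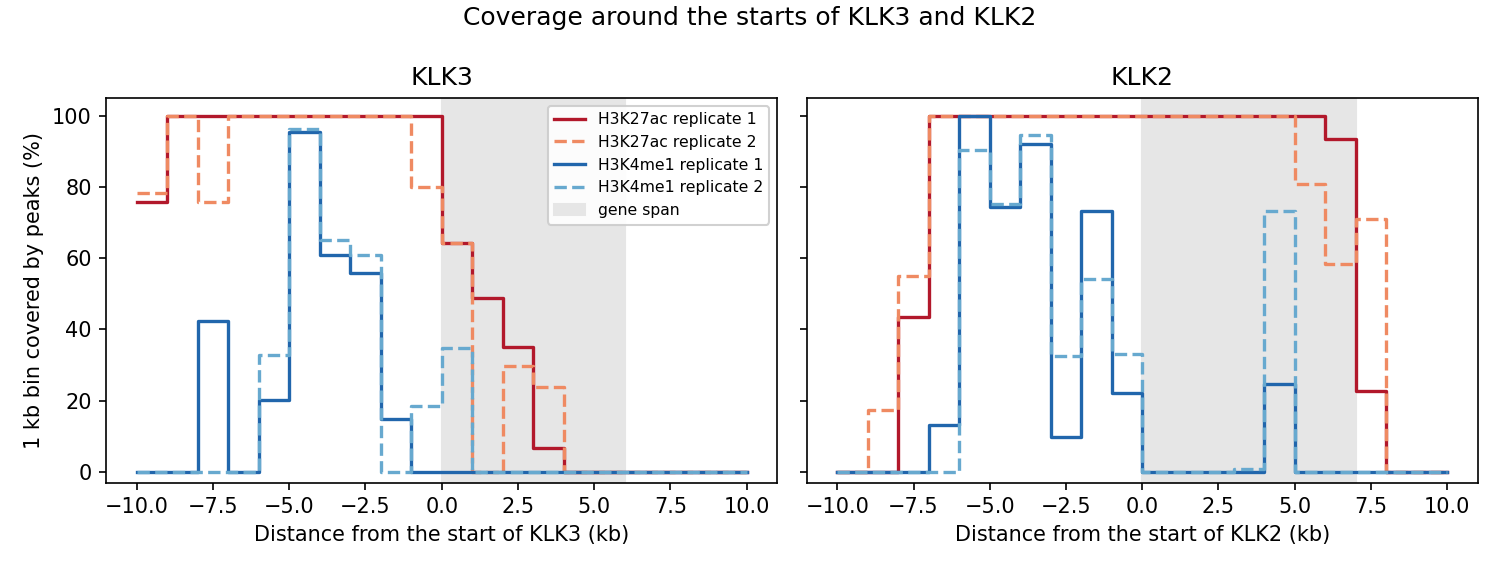
Coverage of 1 kb bins by peaks (%, vertical axis) from 10 kb before to 10 kb after the starts of KLK3 (left) and KLK2 (right), with 1 line per library and the gene span shaded. H3K27ac fills the 5 kb upstream of both starts except for a bin of 80.1% at KLK3 in replicate 2. Its last peaks in KLK3 lie 2.65 to 3.24 kb after the start, and it runs through KLK2. H3K4me1 is highest upstream and 0% over most of both genes.

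Downstream of KLK2, in the direction of KLK4, both marks met. A replicated H3K27ac region of 4312 bp (51391075 to 51395386) held 2 H3K4me1 regions of 1904 and 1874 bp (51391085 to 51392988 and 51393348 to 51395221), among the 4 widest of the locus. H3K4me1 covered 87.6% of it, against 36.5, 25.2 and 31.0% of the 3 wide regions at KLK3 and KLK2. Between KLK2 and this region lay a gap of 6363 bp in replicated H3K27ac with 2 replicated H3K4me1 regions, 562 and 998 bp wide. Each of the 2 overlapped an H3K27ac peak of 1 library only. In the order of the genes KLKP1, a transcribed kallikrein pseudogene, lies between KLK2 and KLK4 in the gene table, and its place among these regions was not analysed here.

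KLK4, encoding a protease known for removing enamel proteins and also made in the prostate, carried a single H3K27ac region. It was 2657 bp wide, from 51410063 to 51412719, and covered 65.1 and 65.3% of the gene span in replicates 1 and 2. H3K4me1 covered 21.9 and 15.7% of the span. The start of KLK4 at 51.414 Mb lay outside the region, 1.28 and 1.33 kb from the nearest H3K27ac peak, and the 10 kb upstream of it had 0% of both marks in every library. KLK4 thus had H3K27ac on the gene and none in the 10 kb upstream. For KLK3, H3K27ac covered 97.6 and 93.4% of the 10 kb upstream. RefSeq gives KLK4 more than 1 start, and the promoter shown above is that of the outermost. Which start was nearest to the region, and which is the one at 51.414 Mb, was not analysed here. A second H3K27ac region of 1595 bp (51424498 to 51426092) lay between KLK4 and KLK5 and coincided with an H3K4me1 region of 1767 bp. It is on the upstream side of KLK4, beyond those 10 kb.

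KLK1, the tissue kallikrein of kidney, pancreas and salivary gland, had no H3K27ac peak on its span. None lay within 5 kb of the approximate point used for KLK15. The RefSeq starts of KLK15 were not placed among the peaks, so a lack of H3K27ac near its start does not follow. On the upstream side of the point, a replicated H3K27ac region begins at 51338170. The distance of that region from the KLK15 start was not analysed here. On the span of KLK1, H3K4me1 covered 0 and 5.42% in its libraries, the second value from 1 peak of 271 bp. A replicated H3K27ac region of 1136 bp ended just below KLK1 (51320837 to 51321972), with a replicated H3K4me1 region of 389 bp on its lower end. The start of KLK1 was 5.30 and 5.03 kb from the nearest H3K27ac peak. At the lower edge of the locus a region of 10786 bp (51298100 to 51308885, rank 76 in the genome) held the widest H3K4me1 region of the locus, 2341 bp from 51301196 to 51303536. In the gene table the neighbours below KLK1 are TMEM277P, SNORD88A to SNORD88C, C19orf48P and ACP4, and the region at the edge was not assigned to any of these.

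KLK5 to KLK9, proteases best known from skin, other epithelia and brain, had no H3K27ac peak in either library. Their common span of 67 kb was covered over 0% by H3K27ac in both and over 0.903 and 1.37% by H3K4me1, below the genome's 2.39 and 3.69%. The H3K4me1 came from 2 replicated regions, 290 bp from 51479187 to 51479476 and 669 bp from 51505314 to 51505982. Neither was assigned to a single gene, since positions for KLK5, KLK6, KLK7, KLK8 and KLK9 were used only as 1 span. The stretch without H3K27ac ran on past the upper edge of the locus, for 147.4 kb in replicate 1 and 147.2 kb in replicate 2, from 51426093 to 51573450 and from 51426076 to 51573227. Stretches as long are not rare, since 93.3 and 94.4% of the gaps between neighbouring H3K27ac peaks in the genome were shorter or equal. Without depth, a lack of peaks shows only that none was called.

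With each base of the locus given to the nearest gene, coverage by H3K27ac was highest for KLK2 and next for KLK3. It was 70.5 ± 0.0881% for KLK2, 60.4 ± 1.33% for KLK3, 37.2 ± 0.529% for KLK15, 34.5 ± 0.424% for KLK1, 13.2 ± 0.688% for KLK4 and 0% for KLK5 to KLK9 (mean ± SD, n = 2). Every step in this order exceeded the spread between the libraries, and the libraries of neighbours in the order did not overlap. Most of the value for KLK1 comes from the region at the lower edge, and that for KLK15 from the lower end of the block in front of KLK3. The approximate KLK15 point sets the borders of its stretch with those of KLK1 and KLK3, so the values for these genes depend on it. Counted within 2 kb of the gene spans instead, H3K27ac averaged 83.0% for KLK2, 32.6% for KLK3, 32.6% for KLK4 and 10.96% for KLK1. For KLK15 it was 0%, counted around a single approximate point and not a gene span. H3K4me1 was also highest for KLK2 (33.1 ± 4.29%) and KLK3 (19.8 ± 1.99%). For KLK4, KLK1 and KLK15 it was 9.98 ± 5.08, 9.81 ± 1.01 and 8.80 ± 7.66%, values that lay within each other's spread. For KLK5 to KLK9 it was 0.896 ± 0.260%.

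**Figure D4:**
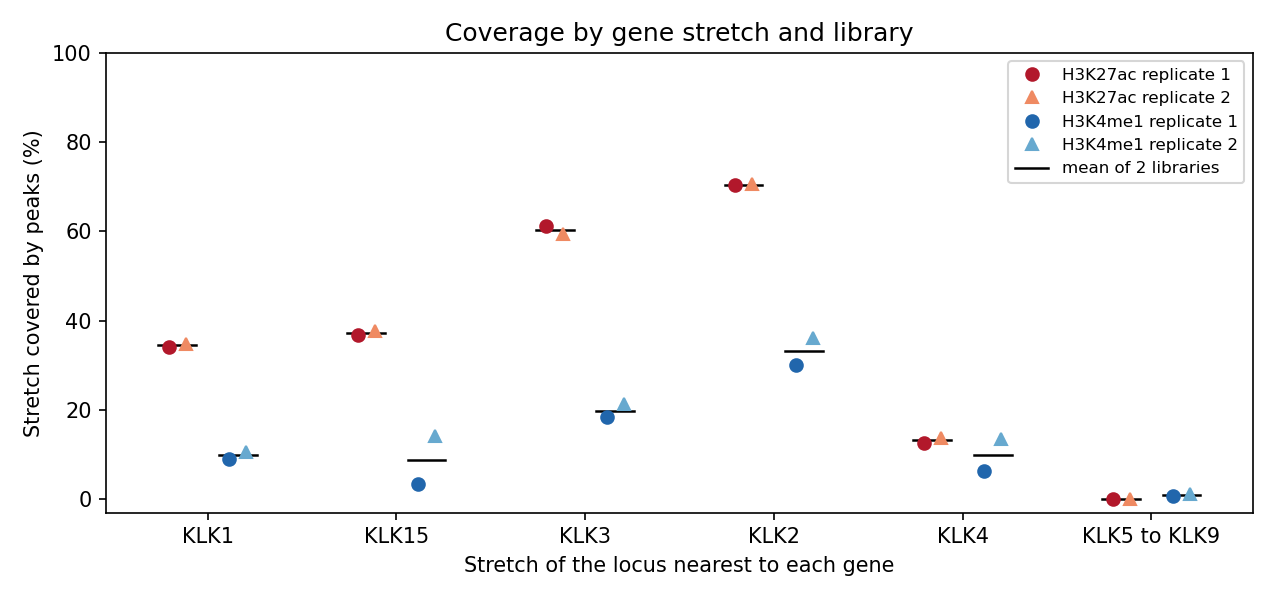
Percentage of the stretch nearest to each gene that is covered by peaks (vertical axis), with points for replicates 1 (circles) and 2 (triangles) of H3K27ac and H3K4me1 and a bar for the mean of the 2 libraries. H3K27ac is highest for KLK2 and KLK3, at 70.5 and 60.4%, and 0% for KLK5 to KLK9.

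Most H3K4me1 of the locus lay on H3K27ac, while most H3K27ac lay outside H3K4me1. Of the 21 replicated H3K4me1 regions 16 overlapped a replicated H3K27ac region, or 76.2% (95% Clopper-Pearson interval 52.8 to 91.8%, counting error only), against 47.1% over the genome and 65.3% on chromosome 19. The interval includes the value of chromosome 19. It treats the regions as independent, although the wide H3K27ac regions at KLK3 and KLK2 held 4, 2 and 4 of them. The interval may thus be too narrow. By length the share was 84.4%, against 38.8% over the genome and 51.4% on chromosome 19. The 4 library pairs gave 82.1 to 90.6% at the locus and 31.8 to 42.2% over the genome, so that every pair was higher at the locus. H3K27ac also covers more of the locus than of the genome, as given above, and the part of this in the overlap was not tested. Of the 9 replicated H3K27ac regions 8 overlapped a replicated H3K4me1 region, or 88.9% (51.8 to 99.7%), against 73.5% over the genome, a difference within the counting error of 9 regions. Peak by peak the shares were 64.7 to 76.9% at the locus and 69.5 to 79.8% over the genome, so no direction held for that count. By length the order turned round, with H3K4me1 on 36.4% of the H3K27ac at the locus, against 51.7% over the genome and 38.5% on chromosome 19. The library pairs gave 30.8 to 39.1% at the locus, against 41.8 to 52.9% over the genome. The covered lengths fixed this direction. Replicated regions of the locus held 54.75 kb of H3K27ac and only 23.6 kb of H3K4me1, so the share could not have reached 51.7%. That most H3K27ac lay outside H3K4me1 follows from the same lengths.

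Joining replicated H3K27ac regions within 12.5 kb of each other put KLK3 and KLK2 into 1 domain of 57.2 kb, from 51338170 to 51395386. It ranked 10 of 27436 domains by H3K27ac length. Its 5 regions added up to 40.5 kb and filled 70.7% of the span, a share exceeded by 16 of the 122 domains with at least 20 kb, whose median was 47.6%. The domains next in rank were looser. That of rank 9, on chromosome 9 from 140082182 to 140198170, had 39.6% of its span filled by 17 regions. That of rank 11, on chromosome 4 from 87926104 to 88015361, had 44.5% filled by 13. H3K4me1 lay on 36.5% of the H3K27ac length in the KLK3 and KLK2 domain, against 59.1% and 81.0% in the domains of rank 9 and 11. In the KLK3 and KLK2 domain H3K4me1 covered 28.6% of the span and H3K27ac 70.7%. The share there could thus not have reached that of either neighbour in rank. Among the 122 large domains the median was 68.1% (quartiles 53.8 and 80.9%), and 14 were lower than the KLK3 and KLK2 domain. With H3K4me1 replicates 1 and 2 taken singly the share was 30.4 and 39.8%, against 48.3 and 61.7% for rank 9 and 73.1 and 79.5% for rank 11. No test applies to single domains.

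**Figure D5:**
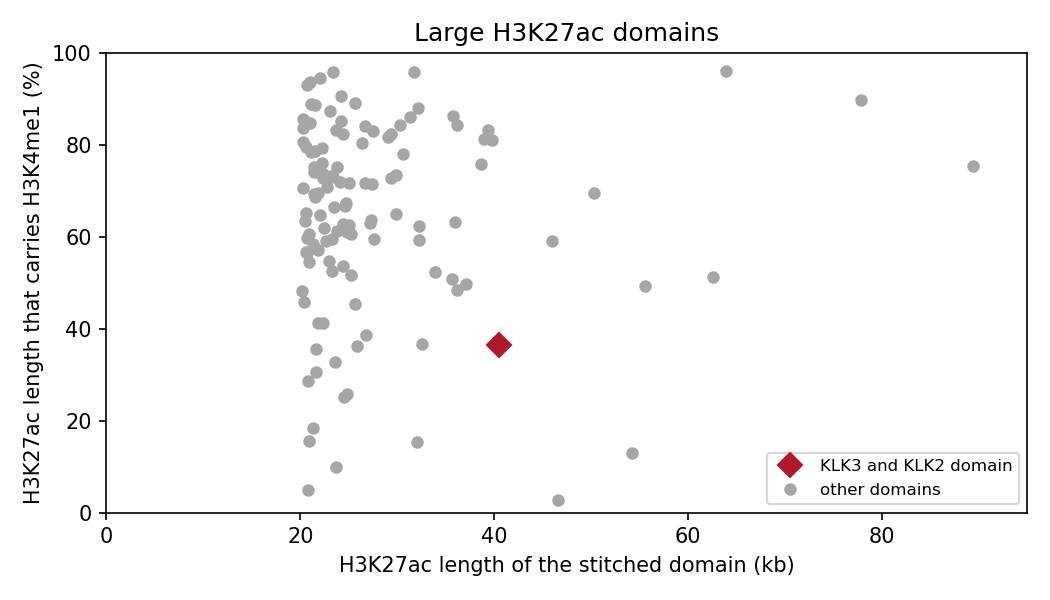
Share of H3K27ac length that carries H3K4me1 (%, vertical axis) against H3K27ac length (kb, horizontal axis) for the 122 domains whose H3K27ac adds up to 20 kb or more. The diamond is the KLK3 and KLK2 domain, at 40.5 kb and 36.5%, and the grey points are the other domains.

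KLK3 and KLK2 shared 1 domain in either H3K27ac library alone, but not at every joining distance. At a joining distance of 5 kb the gap of 8211 bp behind KLK3 splits it, and the part with KLK3 keeps 20.9 kb of H3K27ac, from 51338170 to 51361239. In H3K27ac replicate 2 alone, small peaks between KLK2 and KLK4 extend the domain to 51426075, with 44.8 kb, and so take in KLK4. Just inside the lower edge of the locus the first H3K27ac peaks were 10765 and 10708 bp wide and cross the edge. The nearest outside measured 642 and 172 bp, 71.0 and 2.68 kb away. At the upper edge the last H3K27ac peaks inside were 1591 and 1578 bp wide, and the next outside lay 58.5 and 58.2 kb beyond it (828 and 1005 bp). For H3K4me1 the first peaks inside the lower edge were 333 and 2341 bp wide, with 717 and 711 bp for the nearest outside, 18.2 and 18.4 kb away. The last inside the upper edge were 315 and 669 bp wide, with 337 and 354 bp for the nearest outside, 5.43 and 5.32 kb beyond it.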

How the data were processed

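For each ChIP library the authors deposited a separate peak list, not pooled, with chromosome, start, end and peak name, so that the deposited values are positions in bp. MACS2 2.1.0, Bowtie 1.1.2, Trimmomatic 0.33, bcl2fastq 2.17 and hg19 are listed in the submitters' processing notes. What each tool did, which peak threshold applied and which control was used is not given in the sources used here. Smallest peak widths were 221 and 172 bp in H3K27ac replicates 1 and 2 and 191 and 232 bp in H3K4me1 replicates 1 and 2, with the smallest gap 1 bp more in each, so the distance at which peaks were joined differs between lists and bears on how many and how wide they are.

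Interval arithmetic was done in Python 3.11.15 (numpy 2.4.6, scipy 1.17.1) and checked on simulated intervals. Genome shares use each chromosome up to its last peak. An overlap of 1 bp counted. Marks were compared over libraries by exact permutation of log2 values with Benjamini-Hochberg adjustment. Members, gene positions, stretches and tests were chosen with earlier results of these data known. All 10 genes are named; regions are the 5 widest of each mark, those at gene starts, edges and gaps over 2 kb, plus others named after their values were seen. Libraries with the same number were not treated as pairs: their deviations from the mark's mean had r = -0.0752 in 22951 windows of 100 kb.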

Additional observations from a re-analysis of the deposited data

How the results depend on the processing

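Over 15 results and 82 alternatives, 66 kept their direction or stayed within the spread (for shares, within the counting interval), 16 moved and 0 reversed. Only the ratios between marks could be counted as reversed. The other results could only stay or move, so the count of reversals says nothing about them. Many of the 66 were fixed in advance. Leaving out 1 of 2 libraries never takes their mean beyond their SD, so folds over the genome and gene stretches could not move. It could not reverse the ratios between marks either, because the libraries of the marks did not overlap. The replicate block repeats the main ratio by construction. The count of 66 is therefore no measure of robustness. The replicate block, computed although the numbers do not pair the libraries, left the ratios of H3K27ac to H3K4me1 at 2.49 for covered length, 0.541 for peak number and 3.18 for enrichment, with exact p = 0.5, the smallest that 2 pairs allow. Only with equal numbers of widest peaks did peak number become level between marks (0.997), which was still counted as keeping its direction. Covered length then stood at 3.21, and 100% of 11 H3K4me1 regions carried H3K27ac (the cause was not tested). Leaving out 1 library gave 2.12 to 2.92, 0.473 to 0.619 and 3.01 to 3.37 for those ratios, 58.8 to 88.9% of H3K27ac regions with H3K4me1 and 69.0 to 85.7% of H3K4me1 regions with H3K27ac. With chromosome 19 as the genome the locus stood at 4.88 times for H3K27ac and 2.68 for H3K4me1. The share of tiles follows tile size by construction, and 1 kb gave 28.8% with H3K27ac in both libraries, against 44.2% of tiles of 5 kb. Gene spans with 2 or 5 kb on each side gave 10.96 and 6.58% for KLK1, 32.6 and 39.7% for KLK3, 83.0 and 72.7% for KLK2 and 32.6 and 18.6% for KLK4. Around the single approximate point used for KLK15, the same distances gave 0 and 0%. These stretches hold other bases than the stretches nearest to each gene. The KLK3 domain held 20.9 kb at 5 kb joining and 40.6 to 44.8 kb in single libraries. No depth comes with the lists, so precision is limited by the 2 libraries of each mark and, for shares, by the number of regions.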
